A study of Homo sapiens with 2 samples.

Results

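The pyruvate dehydrogenase (PDH) complex, the mitochondrial enzyme that turns pyruvate into acetyl-CoA, was described here through 10 genes taken by symbol from the 19607 genes of the expression table. They are the 4 PDH kinases PDK1, PDK2, PDK3 and PDK4, the phosphatase genes PDP1, PDP2 and PDPR, and the complex genes PDHA1, PDHB and DLAT. The genes were chosen by symbol, as the enzyme and its regulators, with the log2 fold changes between the libraries (above all that of PDK4) already known, so that difference is given as a description and no test was made on it. The human prostate cancer line CWR22rv1 was grown in serum-containing medium, and its RNA was sequenced as 1 library of Akt1/2 knockout cells (Akt1/2 DKO) and 1 library of wild type cells (control). The knockout cells came from clones isolated after CRISPR/Cas9 editing and puromycin selection, and the labels do not say which clone was sequenced. With 1 library a genotype, knockout, clone and library cannot be told apart, and no p-value is given.

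The kinases add phosphate to serines of the E1 alpha subunit, PDHA1, which stops the complex and spares pyruvate for lactate or other fates, and the phosphatases take the phosphate off and restart it. PDK4 is known as the fasting isoform of muscle, heart and liver, raised by FOXO factors, PPAR receptors and glucocorticoids and lowered by insulin, whose signal passes through Akt. PDK1 is known as a hypoxia-responsive isoform and PDK2 as the broadly expressed one.

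Depth was 9970815 reads for control and 10718634 for Akt1/2 DKO. Fold changes are ratios of reads, Akt1/2 DKO to control, after TMM scaling for library size, and their 95% intervals hold no error other than that of counting. FPKM, fragments scaled by transcript length and sequencing depth, is the authors' own value and is used to compare the levels of different genes. Ratios of the reads of 2 genes are given only to compare the libraries, not as relative levels. The targeted genes were lower in the library labelled Akt1/2 knockout, from 2645 to 591 reads for AKT1 and from 2362 to 667 for AKT2. All 12 prostate luminal markers passed the minimum of 10 reads summed over both libraries, although 6 of them, KLK3 and TMPRSS2 among them, were at least 1.5-fold lower in Akt1/2 DKO and 3 were higher.

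All 10 genes passed that minimum, and PDP1, the one with the fewest reads, had 118 and 106. Among them PDK4 was past 1.5-fold on the high side and PDHB on the low side, beside 30.9% of all 13318 genes with at least 10 reads (15.9% higher, 15.0% lower) and 23.2% of those with at least 100 reads. The other 8 lay within 1.5-fold. In FPKM PDP1 was also past it, 3 of the 10 beside 31.0% of 13124 genes. The median log2 fold change of the 10 was 0.23, beside 0.01 over all 13318 genes.

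**Figure D1:**
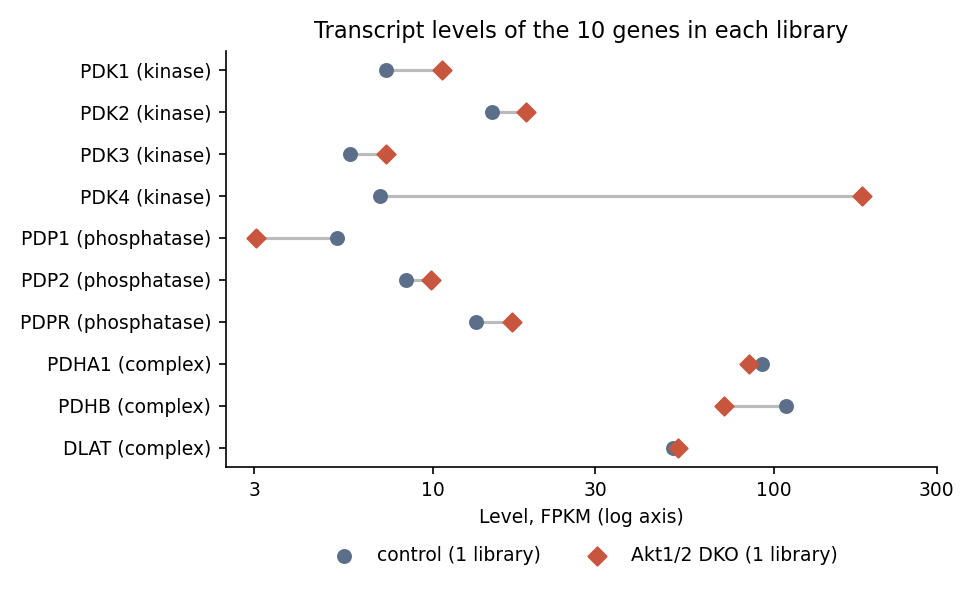
Level in FPKM (log axis) of the 10 genes in the control library (circles) and the Akt1/2 DKO library (diamonds), 1 library each. PDK4 moved from 6.99 to 181.33, past all the other genes shown. PDP1, PDHB and, by less, PDHA1 (92.16 to 84.79) moved to lower levels. In reads the intervals of PDP1 and PDHA1 included no change.

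PDK4 (ENSG00000004799, chr7:95583499-95596491, minus strand) had 251 reads in control and 6999 in Akt1/2 DKO. The ratio was 25.2 (95% interval 22.2 to 28.6), a log2 fold change of 4.65. Its level went from 6.99 to 181.33 FPKM, that is from rank 7987 to rank 406 of the 13318 genes. Of the 10956 genes with at least 100 reads, 68 had a log2 fold change at least as high as that of PDK4, itself included, and by gain in normalized reads PDK4 ranked 9. GENCODE release 29 lists 1 protein-coding PDK4 transcript, of 3576 bases, and the length implied by the deposited reads and FPKM was 3601 bases in both libraries. None of its 50-base windows occurred in a transcript of another gene. The paper states that its quantitative PCR saw no significant change in several FOXO target genes, PDK4 among them. Those data are not shown there, and the cells compared are not named.

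The 250 bases before the RefSeq start of PDK4 are shown because this gene made the largest move of the 10. Those of PDK3, a kinase gene that stayed within 1.5-fold and also has 1 listed start, and of PDHB, the gene that was lower, stand beside it. Capitals mark exact matches, on either strand, to the forkhead sequence TGTTTAC, its variant form TATTTAC, the nuclear receptor core AGGTCA, the glucocorticoid receptor core AGAACA, the hypoxia core ACGTG, the GC box GGGCGG, the CCAAT box and the TATA box TATAAA. Matches to the hypoxia core overlap where both strands hold it. The windows are chr7:95596517-95596766 (minus strand), chrX:24465036-24465285 (plus strand) and chr3:58433833-58434082 (minus strand) of GRCh38, from RefSeq.
PDK4: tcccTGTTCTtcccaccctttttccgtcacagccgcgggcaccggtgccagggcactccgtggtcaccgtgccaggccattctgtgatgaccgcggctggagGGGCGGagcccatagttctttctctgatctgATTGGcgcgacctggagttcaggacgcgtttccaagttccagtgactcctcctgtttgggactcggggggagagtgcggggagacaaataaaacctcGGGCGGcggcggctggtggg
PDK3: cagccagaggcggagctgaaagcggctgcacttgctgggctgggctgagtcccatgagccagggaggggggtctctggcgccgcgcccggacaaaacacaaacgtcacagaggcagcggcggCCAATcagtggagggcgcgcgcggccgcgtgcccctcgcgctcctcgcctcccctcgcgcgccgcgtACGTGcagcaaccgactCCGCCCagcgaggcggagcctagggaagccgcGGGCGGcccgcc
PDHB: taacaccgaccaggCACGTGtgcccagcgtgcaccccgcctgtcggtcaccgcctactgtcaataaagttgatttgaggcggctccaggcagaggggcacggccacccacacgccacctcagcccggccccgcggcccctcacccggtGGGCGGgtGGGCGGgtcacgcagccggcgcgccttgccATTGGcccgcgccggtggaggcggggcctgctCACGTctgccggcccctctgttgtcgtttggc
The PDK4 window held 2 GC boxes, at -148 and -20 from the start, 1 CCAAT on the opposite strand at -117 and 1 AGAACA on the opposite strand at -246. AGAACA was present in 12.4% of the 35116 RefSeq promoter windows of this length, GGGCGG in 42.6% and CCAAT in 32.0%. The PDK4 window held neither forkhead sequence (TGTTTAC in 2.98% of all windows and its variant in 2.39%), nor the nuclear receptor core (12.1%), the hypoxia core (18.5%) or the TATA box (10.7%). The PDK3 window held 2 GC boxes, 1 CCAAT box and 1 hypoxia core. The PDHB window held 2 GC boxes, 1 CCAAT box and 3 matches to the hypoxia core, of which 2 overlap on opposite strands. The GC content was 62.8% for PDK4, 73.6% for PDK3 and 71.6% for PDHB. Bases outside these windows and inexact matches were not searched. Matches describe the letters only, and no binding was measured.

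Among the other kinases, PDK2 (ENSG00000005882), the most abundant of the 4 in control cells, had 330 and 467 reads (control first, here and below), 1.28-fold higher in Akt1/2 DKO (95% interval 1.11 to 1.47). PDK3 (ENSG00000067992), which is known for a weaker response to inhibition by pyruvate, had 108 and 148 reads, and its ratio of 1.24 had an interval from 0.96 to 1.60. PDK1 (ENSG00000152256) had 205 and 256 reads, and its ratio of 1.13 had an interval from 0.93 to 1.36. For PDK1 and PDK3 a difference was therefore not detectable at this depth. The read ratio of PDK1 to PDK2 was 0.62 in control and 0.55 in Akt1/2 DKO, and that of PDK3 to PDK2 was 0.33 and 0.32. These ratios do not depend on library scaling, and the intervals of their change between libraries, 0.70 to 1.12 and 0.72 to 1.30, included 1. In FPKM PDK1 to PDK2 went the other way, from 0.487 to 0.569. The read ratio of PDK4 to PDK2 went from 0.76 to 15.0, a 19.7-fold change (95% interval 16.2 to 23.9).

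Per length, the makeup of the kinase transcripts differed between the libraries. In control cells PDK2 held 42.8% of the summed kinase FPKM, PDK1 20.8%, PDK4 20.0% and PDK3 16.4%. In Akt1/2 DKO cells PDK4 held 83.2%, PDK2 8.58%, PDK1 4.88% and PDK3 3.34%. The sum went from 34.93 to 217.96 FPKM. Without PDK4 the sum of the other 3 was 27.94 in control and 36.63 in Akt1/2 DKO. The smaller shares of PDK1, PDK2 and PDK3 therefore came with levels that were not lower.

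**Figure D2:**
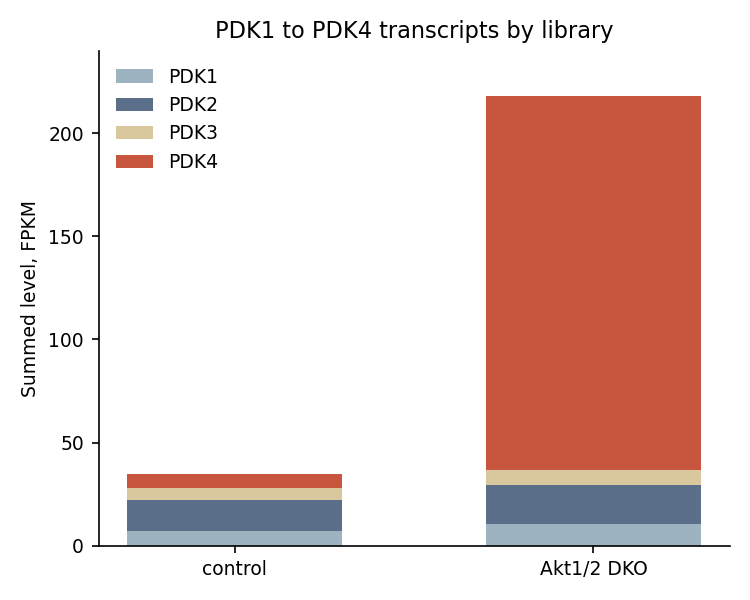
Summed level in FPKM of PDK1, PDK2, PDK3 and PDK4 (stacked, bars from 0) in 1 control and 1 Akt1/2 DKO library. PDK4 held 20.0% of the control bar and 83.2% of the Akt1/2 DKO bar.

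The phosphatase genes showed no shift of that size. PDP2 (ENSG00000172840), a catalytic subunit, had 396 and 535 reads, 1.22-fold higher in Akt1/2 DKO (95% interval 1.07 to 1.39). PDPR (ENSG00000090857), the regulatory subunit that holds the phosphatase in check, had 1122 and 1515 reads, also 1.22-fold higher (95% interval 1.13 to 1.32). Of the 50-base windows of the longest PDPR transcript, 14.6% also occurred in other genes, nearly all of them in the transcribed pseudogene AC009053.1 of the same chromosome, so its reads are uncertain. PDP1 (ENSG00000164951, chromosome 8), the catalytic subunit that calcium activates, had 118 and 106 reads, and its ratio of 0.81 had an interval from 0.62 to 1.06. The read ratio of PDP1 to PDP2 was 0.30 in control and 0.20 in Akt1/2 DKO, 0.66-fold (95% interval 0.49 to 0.90). The promoter of PDP1 was not analysed here.

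Kinase and phosphatase transcripts were set beside each other per length. The summed FPKM of PDP1 and PDP2 was 13.61 in control and 12.95 in Akt1/2 DKO. The direction of this small difference depends on the scale. In FPKM PDP1 went from 5.23 to 3.04 and PDP2 from 8.38 to 9.91. In reads PDP1 had 118 and 106 and PDP2 396 and 535, so their summed reads were not lower in Akt1/2 DKO. The kinase sum in FPKM was 2.57 times the phosphatase sum in control and 16.8 times in Akt1/2 DKO. Without PDK4 the ratios were 2.05 and 2.83 in FPKM and 1.25 and 1.36 in reads. RNA levels do not give the amount or the activity of these enzymes, and phosphorylation of PDHA1 was not measured in these libraries.

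The complex itself has an E1 part made of PDHA1 and PDHB, an E2 core made of DLAT and an E3 part made of DLD, which PDHX binds to the core. PDHA1 (ENSG00000131828) had 1447 and 1593 reads, a ratio of 0.99 (95% interval 0.92 to 1.07) whose log2 value lay between -0.03 and 0.04 over 6 other scalings. DLAT (ENSG00000150768) had 1560 and 1869 reads, a ratio of 1.08 (95% interval 1.01 to 1.16). PDHB (ENSG00000168291, chr3:58427630-58433857, minus strand) had 1661 and 1173 reads and was 1.57-fold lower in Akt1/2 DKO (95% interval 1.46 to 1.69), an interval that includes 1.5-fold. The 2 subunits of E1 thus parted, since the read ratio of PDHB to PDHA1 was 1.15 in control and 0.74 in Akt1/2 DKO, 0.64-fold with an interval from 0.58 to 0.71. DLAT to PDHA1 stayed at 1.08 and 1.17 (log2 change 0.12, interval -0.02 to 0.27). Of the remaining subunits, PDHX had 619 and 673 reads (ratio of its change to that of PDHA1 0.99, interval 0.87 to 1.13) and DLD had 1880 and 1788 (0.86, interval 0.78 to 0.95). PDHA2, the testis form of E1 alpha, had 0 reads in both libraries, which allows up to 3 reads, or 0.306 and 0.276 CPM. In FPKM, PDK4 was 0.076 times PDHA1 in control and 2.14 times PDHA1 in Akt1/2 DKO.

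**Figure D3:**
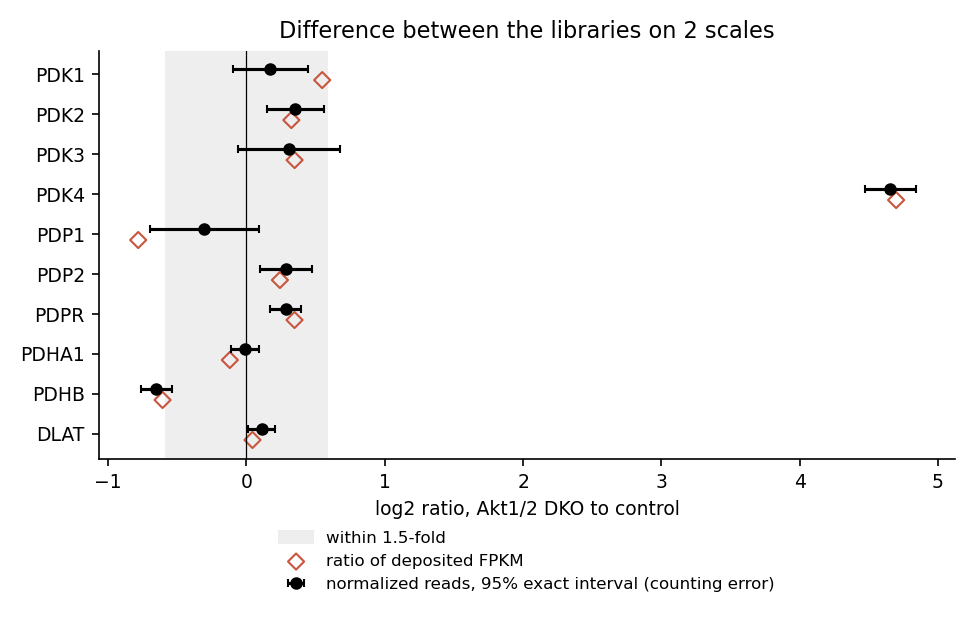
The log2 ratio of Akt1/2 DKO to control for each gene from normalized reads (filled circles, bars are 95% exact intervals for counting error) and from the deposited FPKM (open diamonds), with the span within 1.5-fold in grey. PDK4 and PDHB lie outside the span on both scales, and PDP1 only in FPKM.

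Levels ordered the genes differently in the 2 libraries. In control the order by FPKM was PDHB (108.39), PDHA1 (92.16), DLAT (50.63), PDK2 (14.94), PDPR (13.41), PDP2 (8.38), PDK1 (7.28), PDK4 (6.99), PDK3 (5.72) and PDP1 (5.23). For 5 of the 9 pairs of neighbours in this order the 95% Poisson intervals overlapped, namely PDK2 with PDPR and each pair of neighbours from PDP2 down to PDP1. In Akt1/2 DKO the order was PDK4 (181.33), PDHA1 (84.79), PDHB (71.18), DLAT (52.18), PDK2 (18.71), PDPR (17.06), PDK1 (10.64), PDP2 (9.91), PDK3 (7.28) and PDP1 (3.04). There the intervals overlapped for 2 of the 9 pairs, PDK2 with PDPR and PDK1 with PDP2.

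The reads and the FPKM did not tell the same story for PDP1 and PDK1. PDP1 had a log2 ratio of -0.30 in reads and -0.78 in FPKM, which is past 1.5-fold. The transcript length implied by its reads and FPKM went from 2263 bases in control to 3253 in Akt1/2 DKO, a log2 ratio of 0.52. PDK1 had a log2 ratio of 0.17 in reads and 0.55 in FPKM, and its implied length went from 2824 to 2245 bases, a log2 ratio of -0.33. For 90% of the genes with at least 100 reads this length ratio lay between -0.21 and 0.26, and both genes fall outside it, in opposite directions. The annotation lists 9 protein-coding transcripts of PDP1, from 341 to 4358 bases, and 6 of PDK1, from 558 to 14193 bases. Which transcripts carried the reads was not analysed here. The other 8 genes had length ratios between -0.02 and 0.15.

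The place of each gene in the genome was set beside its value. PDHB lies on chromosome 3, where the median log2 fold change of 666 genes with at least 50 reads was -0.53, with 579 lower and 87 higher in Akt1/2 DKO. PDHB itself was at -0.65. Within 5 Mb of PDHB, 11 of 23 genes were at least 1.5-fold lower and 2 higher, with a median of -0.49, and its nearest neighbours with at least 10 reads were PXK (-0.47) and KCTD6 (-0.49). The chromosomes of the other 9 genes had medians between -0.20 (chromosome 8, PDP1 at -0.30) and 0.09 (chromosome 7). The part of the chromosome 3 shift in the value of PDHB was not tested.

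Most genes around PDK4 lay within 1.5-fold. Within 5 Mb the median over 66 genes with at least 50 reads was 0.05 (log2 fold change), with 6 at least 1.5-fold higher and 8 lower. Its nearest neighbour on the side of lower coordinates, PON2, a lactonase gene, had 1158 and 814 reads (log2 fold change -0.66). On the other side DYNC1I1, a dynein intermediate chain gene, had 12 and 44 reads (1.73, 95% interval 0.78 to 2.78). PON1, next after PON2, went from 486 to 21 reads, opposite to PDK4. The highest log2 fold change in the window, 5.71, was that of CDK6, a cell cycle kinase gene, 2.76 Mb from PDK4.

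**Figure D4:**
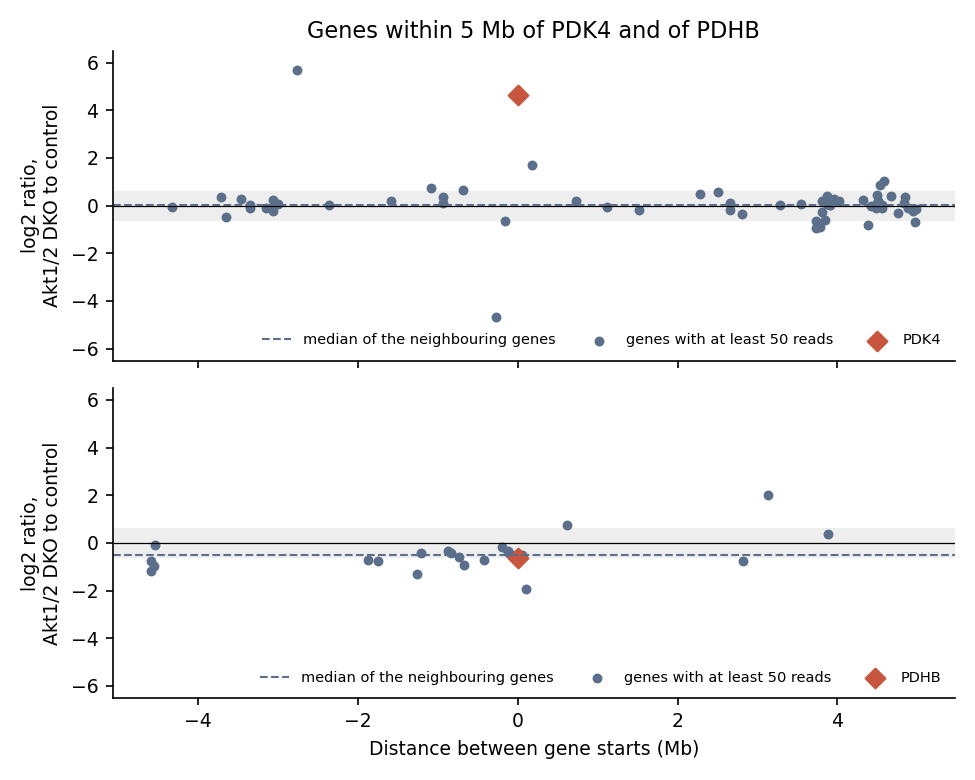
The log2 ratio of Akt1/2 DKO to control for genes with at least 50 reads (points) by the distance of their start from that of PDK4 (top) or PDHB (bottom), in Mb, with the median dashed and the span within 1.5-fold in grey. PDK4 stands far above a median of 0.05, with CDK6 at 5.71 the one neighbour above it, and PDHB lies close to a median of -0.49.

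The 3 genes most like PDK4, by Euclidean distance between log2(CPM + 1) values over 2 libraries, were FZD5 (distance 0.78), PLK3 (1.01) and UPK3BL (1.13). FZD5, a Wnt receptor gene, had 438 and 7386 reads. PLK3, a polo-like kinase gene, had 156 and 4081, and UPK3BL, a uroplakin-like gene, had 371 and 3510. Their ratios were 15.2, 23.6 and 8.53, beside 25.2 for PDK4. In FPKM, FZD5 (6.5) and PLK3 (6.23) started near PDK4 (6.99) and UPK3BL (27.53) started higher. The reads of UPK3BL are uncertain, since a near-identical copy may take or lend some.

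Lists of related genes were described in the same way, by counts of genes past 1.5-fold and medians, beside 30.9% and 0.01 over all genes. The branched-chain ketoacid dehydrogenase complex, the closest relative of PDH, with its own kinase BCKDK and phosphatase PPM1K, had 0 of 5 genes past 1.5-fold and a median log2 fold change of -0.19. BCKDK had 682 and 665 reads and PPM1K 99 and 107. Of the 3 genes that make or attach lipoate, the cofactor of DLAT, LIAS was just past 1.5-fold higher (149 and 248 reads) and LIPT2 lower (48 and 32 reads). With DESeq2 size factors LIAS lay within 1.5-fold.

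Around pyruvate itself, 4 of 15 genes were at least 1.5-fold higher and 1 lower, with a median log2 fold change of 0.28. The 4 were GPT, which makes alanine from pyruvate (68 and 323 reads, 4.28-fold, 95% interval 3.29 to 5.65), the monocarboxylate transporters SLC16A3 (354 and 899 reads, 2.29-fold, interval 2.02 to 2.60) and SLC16A1 (600 and 1138 reads, 1.71-fold, interval 1.55 to 1.89, within 1.5-fold in FPKM), and the lactate dehydrogenase subunit LDHB (11314 and 19165 reads, 1.53-fold, interval 1.49 to 1.56). The pyruvate carriers of the inner mitochondrial membrane, MPC1 and MPC2, were within 1.5-fold, at log2 fold changes of 0.08 and -0.14. Of 19 genes of citrate synthesis and the tricarboxylic acid cycle, 17 lay within 1.5-fold, 0 were higher and 2 were lower, with a median of -0.15. The 2 were SUCLG2, a succinyl-CoA ligase subunit gene on chromosome 3 (1359 and 674 reads, 2.24-fold lower), and ACO1, the cytosolic aconitase (339 and 238 reads, 1.58-fold lower).

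Of 16 factors and coactivators known to act on PDK4, 12 had at least 10 reads, 4 were at least 1.5-fold higher and 2 lower, with a median of 0.33. The glucocorticoid receptor gene NR3C1 had 57 and 373 reads (5.90-fold higher, 95% interval 4.46 to 7.94) and FOXO1 had 36 and 110 (2.76-fold, interval 1.88 to 4.14). FOXO4 had 28 and 65 reads (2.09-fold higher, interval 1.33 to 3.39). FOXO3 had 520 and 579 reads and lay within 1.5-fold, with an interval of its ratio from 0.89 to 1.13. In FPKM FOXO3 (8.7 and 9.64) was above FOXO1 (0.63 and 1.78) and FOXO4 (1.42 and 2.43) in both libraries. CEBPB had 434 and 832 reads (1.73-fold higher) and RXRA, the partner of PPAR receptors, had 242 and 141 (1.90-fold lower). PPARA, a PPAR receptor, had 306 and 222 reads (1.53-fold lower) and lay within 1.5-fold with total count scaling, upper-quartile scaling and FPKM. PPARG, PPARGC1A, ESRRG and HNF4A had 0 reads in both libraries. Levels of these factors on their own do not show which of them acts on PDK4 here.

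Other fasting and PPAR target genes went both ways. Of 15 with at least 10 reads, 7 were at least 1.5-fold lower in Akt1/2 DKO and 2 higher, with a median of -0.39. The 2 higher ones had few reads, UCP3 with 5 and 21 and PLIN2 with 19 and 36, and the interval of PLIN2 included no change. Among the lower ones CD36, a fatty acid transporter, went from 796 reads to 1, and UCP2, an uncoupling protein gene, from 1031 to 230 (4.97-fold lower). SLC25A20, the carnitine carrier, on chromosome 3, had 470 and 161 reads (3.24-fold lower) and ANGPTL4, a lipase inhibitor, 334 and 194 (1.91-fold lower). Of 11 hypoxia-responsive genes set beside PDK1, 2 were higher and 2 lower. HK2 (953 and 2227 reads) and ALDOA (7764 and 13439) were higher, and NDRG1 (390 and 176) and EGLN3 (155 and 111) were lower. EGLN3 lay within 1.5-fold with upper-quartile scaling and in FPKM, where its log2 ratio was -0.20. The list median was -0.03, and it was 0.02 with total count scaling, upper-quartile scaling and FPKM.

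**Figure D5:**
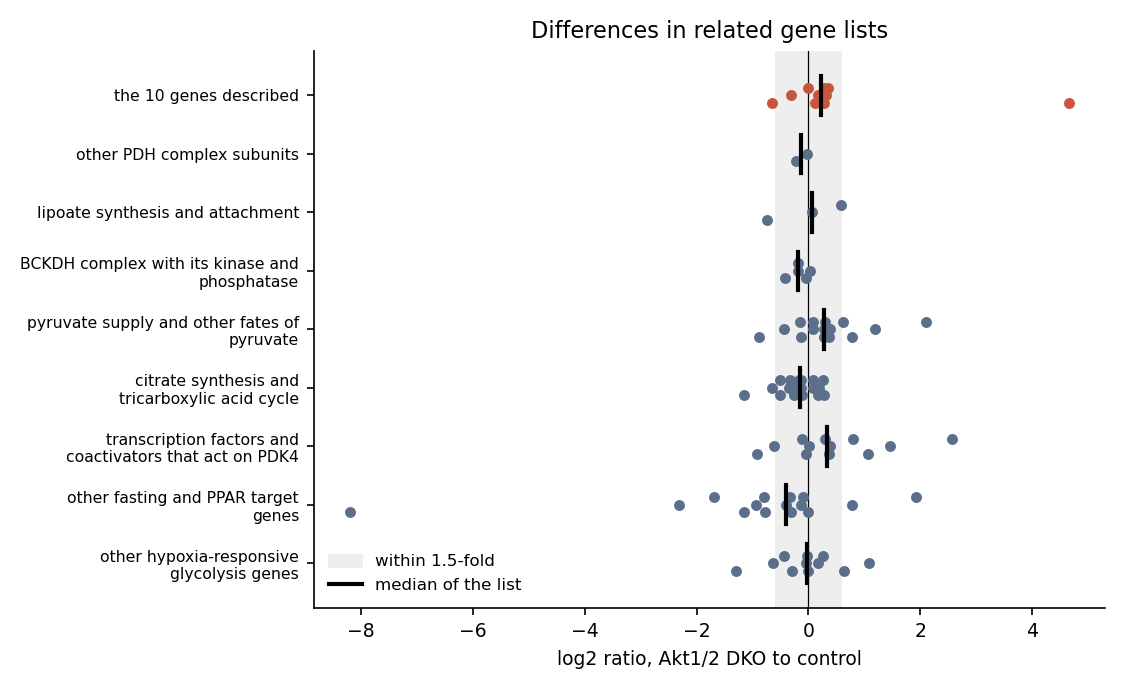
The log2 ratio of Akt1/2 DKO to control for each gene with at least 10 reads (points) in the 10 genes described (top row) and 8 related lists, with list medians as black bars and the span within 1.5-fold in grey. PDK4 stands apart at 4.65, the fasting and PPAR target list lies mostly below 0, and its lowest point, CD36, rests on 1 read in Akt1/2 DKO.

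PDK4 is abundant in muscle, fat and liver, so markers of these tissues and of fibroblasts were read in both libraries. Of 9 muscle markers, MB went from 18 to 189 reads and TNNT1 from 495 to 976, and the other 7, ACTA1, CKM and the myosin genes among them, had 0 to 2 reads in either library. Of 6 fat markers, ADIPOQ, FABP4 and LEP had 0 reads in both libraries and PLIN4 had 38 and 24. Of 6 liver markers, ALB had 1244 and 120 reads, so it was lower where PDK4 was higher, and the other 5 had 0 to 6. The 7 fibroblast markers summed to 144 and 160 reads, and the 3 with at least 10 reads went both ways, COL1A1 from 55 to 106, LUM from 5 to 35 and COL3A1 from 74 to 9. The part of these markers in the values of PDK4 was not tested. In bulk RNA a change in the share of cells that express a gene and a change of RNA per cell cannot be told apart.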

How the data were processed

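RNA from 1 Akt1/2 DKO and 1 control library of CWR22rv1 cells was measured. The authors deposited estimated counts per gene that were not normalized, together with FPKM, which the authors scaled by transcript length and depth. Per the submitters' processing notes in the labels, fastp 0.20.0, TopHat, Cufflinks and edgeR were used on build GRCh38.p10. The counter, annotation and strand setting are not given in the sources used here. Tables of the authors' own fold changes, p-values and ontology classes were not used.

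Estimated counts were rounded to whole reads, and 13318 genes with a sum of 10 reads or more over both libraries entered. With TMM (edgeR 4.0.16, R 4.3.3) the Akt1/2 DKO library counted as 1.11 times the control one. A library under 3 reads was set to 3. Fold intervals are Clopper-Pearson (exact) on the split of a gene's reads, levels have Poisson intervals and ratios of ratios conditional ones (scipy 1.17.1). PCR duplicates are not independent molecules, so all of them cover counting error only. The TMM scaling and the fold changes were tested on simulated data, and the intervals and other steps were not.

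The 10 genes and all lists were chosen with earlier results of these data known. Named beside them were AKT1, AKT2, PDHX, DLD, PDHA2, up to 4 genes of each list with the largest difference past 1.5-fold and at least 100 reads, the nearest kept gene on each side of PDK4 and PDHB, and the 3 genes most like PDK4. Other names, CDK6, PON1, FOXO3, FOXO4, PPARA, UCP3, PLIN2, LIPT2, BCKDK, PPM1K, MPC1, MPC2, the genes at 0 reads and the remaining markers, were added after their values were seen. Positions come from GENCODE 29 (GRCh38), promoters from RefSeq (GRCh38), with 9 of the 10 genes matched. Alternatives were other scalings, FPKM, read filters, a 2-fold threshold and a stricter interval.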

Additional observations from a re-analysis of the deposited data

How the results depend on the processing

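Over 6 other scalings the log2 fold change of PDK4 lay between 4.63 and 4.70 and that of PDHB between -0.67 and -0.60, past 1.5-fold in each. Of 70 recomputed values of the 10 genes, 67 stayed within their counting interval, and the 3 outside it came from the FPKM ratio, for PDK1 (0.55), PDP1 (-0.78) and PDHA1 (-0.12). Each of the 6 scalings shifts all 10 genes by the same amount, between -0.02 and 0.05 in log2. That is too small to leave any of the intervals, so only the FPKM ratio could move a value outside. With FPKM 3 of the 10 genes were past 1.5-fold. A 2-fold threshold left 1 of the 10 and 2391 of all genes (main counts 2 and 4117), and an interval that excludes 1.5-fold left 1 and 2201, since each asks for more. In reads, not per length, PDK4 held 28.1% of the kinases in control and 88.9% in Akt1/2 DKO, and kinases over phosphatases came to 1.74 and 12.3, because transcript lengths differ. Without PDK4 that ratio was 2.05 and 2.83 in FPKM and 1.25 and 1.36 in reads. The counts for the related lists, an alternative chosen after seeing the data, moved in total by over 1.5 times only for lipoate genes with DESeq2 1.42.0 size factors, from 2 to 1. Of lower genes alone, the count went from 2 to 1 for the factors that act on PDK4 (total count, upper-quartile, FPKM) and for the hypoxia list (upper-quartile, FPKM). No paired analysis was possible because each genotype has 1 library, and leaving out a library was not possible either. The depth limits PDK1, PDK3 and PDP1, whose intervals include no change.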
